A study of Mus musculus with 6 samples.

Results

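Ribose methylation of rRNA was compared between the adult brain and the embryonic brain at stage E16.5 of wild-type (WT) mice. Every site of the authors' deposited overview table was taken, and the WT columns were chosen by their headings. These are 40 of 40 listed sites of 18S rRNA, 66 of 66 of 28S rRNA and 2 of 2 of 5.8S rRNA. The WT brains carry no deletion of Snord115 or Snord116, and the table credits their values to an earlier study without naming strain or exact adult age. They are given as the authors' mean score and SD at each age, so no value of a single WT brain was used here. The samples of the series are 3 whole brains of adult Snord115-KO mice and 3 whole brains of E16.5 embryos lacking Snord115 and Snord116, which were set beside the WT values. The Snord115-KO mice are heterozygous for a constitutive deletion inherited from the father, the parent whose Snord115 copies are expressed. Brain mixes neurons, glia and vessels, whose shares differ between embryo and adult, and the rRNA tables hold no marker of a cell type. A change in the mix and a change within cells therefore cannot be told apart.

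Methylation of the ribose at its 2'-O position is among the most frequent modifications of rRNA. It is added by the methyltransferase fibrillarin, which a box C/D small nucleolar RNA (SNORD) leads to its target. The SNORD pairs with the rRNA through an antisense element, and the rRNA base that pairs with the fifth nucleotide before the D or D' box is methylated. Most such sites lie in the functional core of the ribosome and are methylated in nearly every ribosome of a cell, while some are methylated in only part of the ribosomes. RiboMeth-seq reads the methylation from alkaline cleavage, which the methyl group blocks, so that a methylated nucleotide has fewer read ends than its neighbours. The score runs from 0 to 1 and estimates the methylated share of the rRNA. It is floored at 0 where a position has more read ends than its neighbours predict.

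The sites with the largest differences are shown in their rRNA sequence, because each name gives the human position while the tables are read on the mouse rRNA. They are the 12 sites where the WT means of the ages differed by at least 0.1 and by more than both SDs together. Each stretch has 21 bases of the mouse rRNA as deposited, 5' to 3', with the listed base in capitals.
SSU-G436: auuccggagaGggagccugag
LSU-G4593: cgcagguucaGacauuuggug
LSU-G3923: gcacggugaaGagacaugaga
SSU-A576: uccacuuuaaAuccuuuaacg
SSU-U354: uucgaacgucUgcccuaucaa
LSU-A3846: gcgaaaccacAgccaagggaa
5.8S-U14: cucuuagcggUggaucacucg
LSU-G2411: gugaacagcaGuugaacaugg
LSU-G3606: gcggaccaggGgaauccgacu
LSU-G4020: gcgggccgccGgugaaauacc
LSU-C4032: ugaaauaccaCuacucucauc
SSU-U172: cuagagcuaaUacaugccgac
No genome build applies to these positions, which count from the start of the mature rRNA. SSU stands for 18S rRNA of the small subunit and LSU for 28S rRNA of the large one.

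Mouse snoRNA genes of the GRCm38 annotation (GENCODE vM21) were searched for antisense elements to the listed sites. Of 1472 genes, those with at least 11 unbroken Watson-Crick pairs that put the site opposite the nucleotide 5 bases before a CTGA box were kept, and 50 of the listed sites had one. For 4 of the sites above, the paired stretch of the snoRNA is shown 5' to 3' to set guide and target side by side, with the base opposite the site in capitals.
Snord78 (LSU-G4593): caaauguCuga
Snord93 (SSU-A576): guuaaaggaUuua
Snord92 (LSU-A3846): ccuuggcUgug
Snord45b (SSU-U172): ggcauguAuuag
These genes lie at chr1:161036984-161037049 (plus strand), chr5:23852210-23852280 (plus strand), chr17:71631281-71631365 (plus strand) and chr3:153910563-153910633 (minus strand). A match shows pairing only, and the level of the snoRNAs was not measured in these data.

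In the WT brain most listed sites had a higher score in the adult. The WT mean was higher in adult at 87 listed sites and lower at 21. The median of adult minus E16.5 was 0.0226, with quartiles of 0.00442 and 0.0527. The median score was 0.969 in adult and 0.942 at E16.5, so that the median unmethylated share was 3.14% in adult and 5.81% at E16.5. A total of 75 sites had a score of at least 0.95 in adult and 44 at E16.5. A score under 0.75 was found at 4 sites in adult and at 9 sites at E16.5.

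A difference was counted when it was larger than the sum of the authors' SDs of the ages, so that the ranges of mean plus and minus SD do not overlap. This is a description and not a test, and no p-value is given for WT. By this measure 56 of the listed sites (51.9%) differed, 52 (48.1%) with a higher score in adult and 4 (3.70%) with a lower one. The size was at least 0.05 at 29 of the 56 sites and at least 0.1 at 12 of them. The authors' deposited SD had a median of 0.00934 in adult and 0.0179 at E16.5, and it was larger at E16.5 at 72 sites. The read depth of the WT libraries is unknown here, and age and library cannot be told apart in the WT values.

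**Figure D1:**
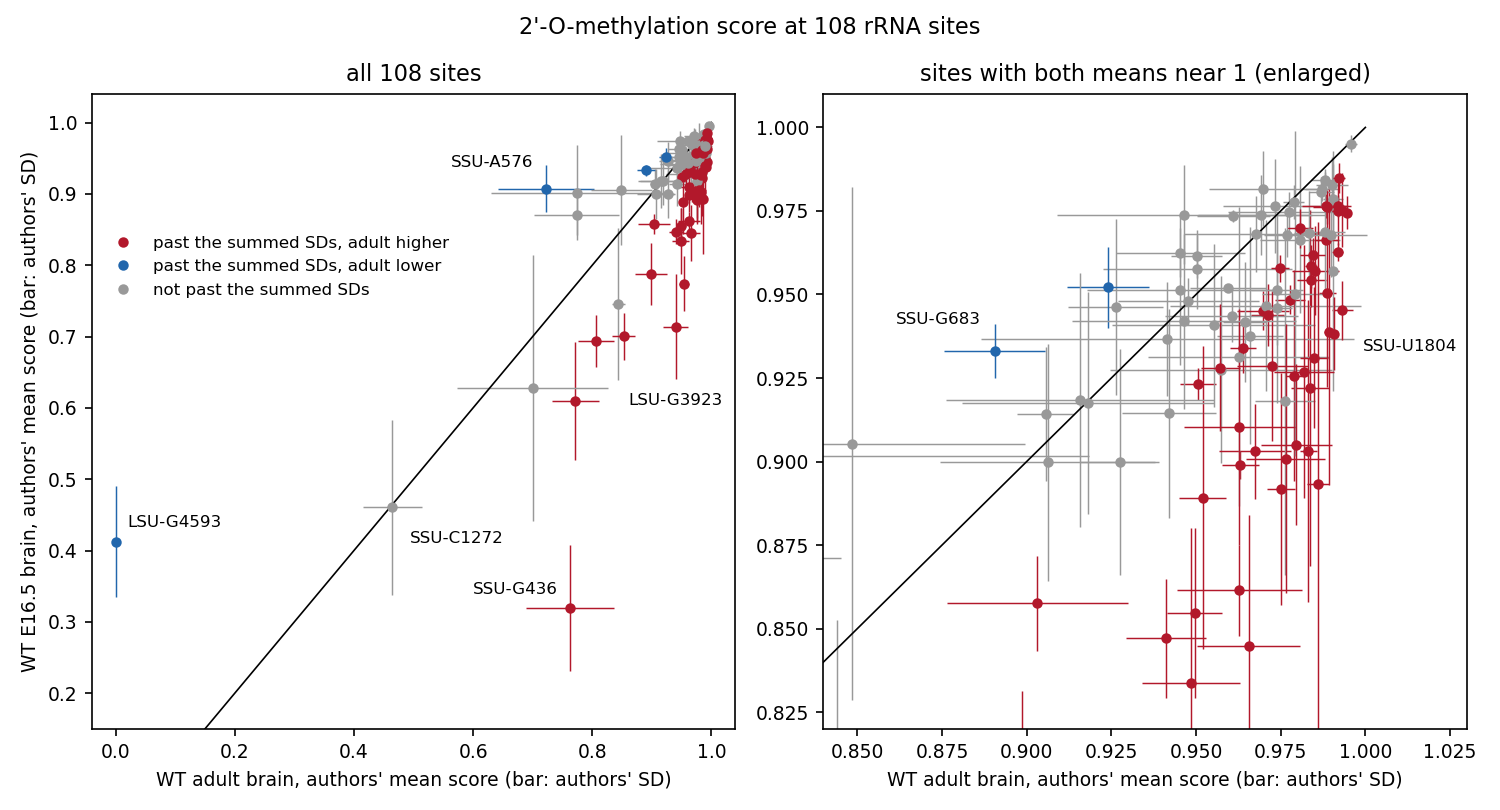
Authors' mean score in WT adult brain (horizontal axis) against WT E16.5 brain (vertical axis) at all listed sites, with the authors' SDs as bars, the line of equal scores, and sites past the summed SDs in red (52, adult higher) or blue (4, adult lower). Most points near 1 lie below the line, and the right panel enlarges that corner, which leaves out the sites with lower scores.

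**Figure D2:**
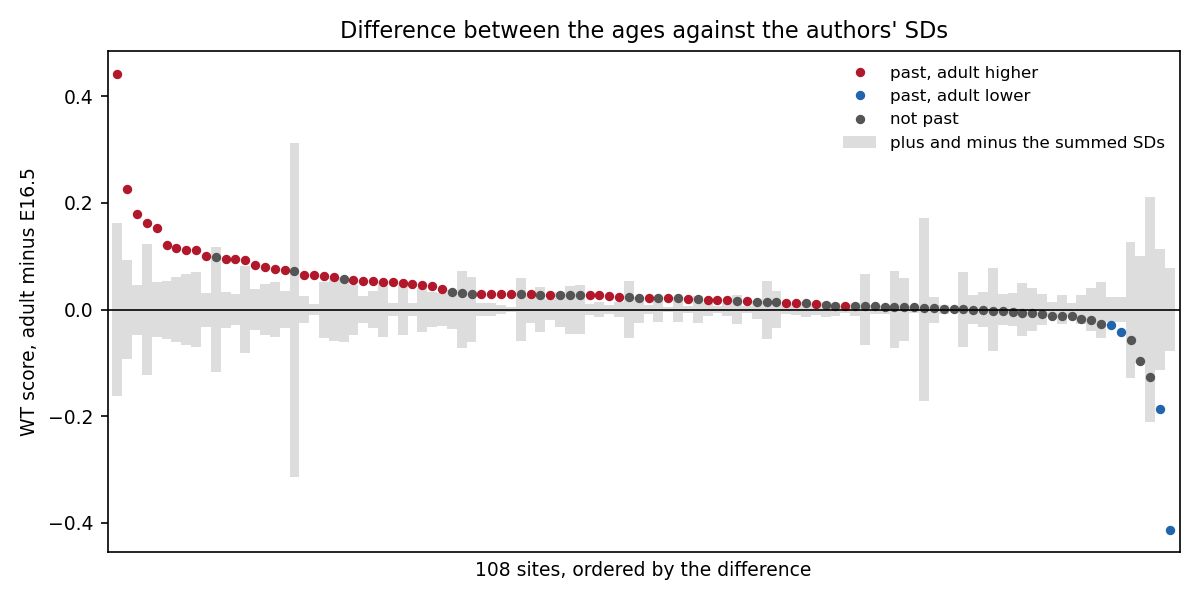
WT adult minus E16.5 score at all listed sites, ordered from the highest to the lowest, with the range of plus and minus the summed SDs of each site as a grey bar. The highest point is SSU-G436 (0.442) and the lowest LSU-G4593 (-0.412).

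SSU-G436 had the largest difference of all listed sites. It lies at position 438 of mouse 18S rRNA. The WT mean was 0.762 in adult (the authors' deposited SD, 0.0738) and 0.319 at E16.5 (the authors' deposited SD, 0.0877), a difference of 0.442 against summed SDs of 0.161. The unmethylated share, taken as 1 minus the score, was 23.8% in adult and 68.1% at E16.5. This is the lowest score of any site at E16.5. The KO brains had 0.864, 0.882 and 0.875 in adult, and 0.563, 0.136 and 0.313 at E16.5, without overlap between the ages. The E16.5 brains were far apart at this site, and the adult brains close together.

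LSU-G4593 had the largest difference in the other direction and no measurable protection in adult. This site at position 4276 of mouse 28S rRNA is guided by SNORD78, which is processed from an intron of Gas5. Its WT mean was 0 in adult, with an SD of 0, and 0.412 at E16.5 (the authors' deposited SD, 0.0776). A score of 0 is the floor and only says that the position was not protected. The 3 adult KO brains were also at 0, with 4949, 6115 and 3869 read ends against 3734, 5136 and 2999.6 expected from the neighbours. The E16.5 KO brains had 0.498, 0 and 0.408, so that 1 of them was at the floor like the adult brains. Scored on the 5' read ends alone, the E16.5 KO brains had 0.545, 0.561 and 0.593 and lay close together, while the adult brains stayed at 0. On the 3' ends alone the E16.5 brains had 0.458, 0 and 0.160. Replicate 2 at E16.5 thus reached the floor through its 3' ends. It also had the lowest of the E16.5 scores at SSU-G436 and LSU-G3923. At LSU-G3923 its 3' score was the lower, 0.345 against 0.788 on the 5' ends. At SSU-G436 its 5' score was the lower, 0.0979 against 0.395 on the 3' ends. At sites followed by A, as LSU-G4593 and LSU-G3923 are, the median of the 5' score minus the 3' score was 0.286 in this library. LSU-U4590 and LSU-G4588, which lie within 6 bases of LSU-G4593 and count among its neighbours, had WT means of 0.916 and 0.927 in adult, and 0.918 and 0.8999 at E16.5. Neither difference was past the summed SDs.

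Other sites had a lower WT score in adult, but only SSU-A576, SSU-G683 and LSU-A3764 joined LSU-G4593 past the summed SDs. SSU-A576, the target that pairs with Snord93, had a WT mean of 0.722 in adult (the authors' deposited SD, 0.0809) and 0.907 at E16.5 (the authors' deposited SD, 0.0327), a difference of -0.186. Its KO brains gave 0.5002, 0.567 and 0.464 in adult, and 0.898, 0.925 and 0.925 at E16.5. The adult brains were thus lower in both genotypes, and the adult KO mean lay further below E16.5 than the WT mean did. The larger of the differences between genotypes at this site, 0.212, exceeded the WT difference between ages. SSU-G683 had a WT mean of 0.891 in adult (the authors' deposited SD, 0.0148) and 0.933 at E16.5 (the authors' deposited SD, 0.00810). Its KO means in the table were 0.948 in adult and 0.951 at E16.5, so the WT adult mean stood apart from the other means. Its E16.5 WT mean is written with more decimals than most, which may mark a corrected value, and its adult WT mean is not. LSU-A3764 had 0.924 in adult and 0.952 at E16.5, a difference of -0.0281 against summed SDs of 0.0242.

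The next sites past the summed SDs by size were higher in adult. LSU-G3923 had a WT mean of 0.940 in adult (the authors' deposited SD, 0.0203) and 0.714 at E16.5 (the authors' deposited SD, 0.0733). SSU-U354 had 0.954 in adult (the authors' deposited SD, 0.00809) and 0.774 at E16.5 (the authors' deposited SD, 0.0389), a difference of 0.180. Both were nearly complete in the adult brain and had over 20% unmethylated rRNA at E16.5, with 28.6% at LSU-G3923 and 22.6% at SSU-U354. The KO brains had 0.970, 0.984 and 0.966 in adult, and 0.783, 0.787 and 0.794 at E16.5 at SSU-U354, a narrow range at each age. At LSU-G3923 they had 0.940, 0.883 and 0.826 in adult, and 0.850, 0.353 and 0.814 at E16.5. These ranges overlapped, since 1 adult brain was below the highest E16.5 brain. Counting only 5' ends, the site had 0.975, 0.946 and 0.876 in adult, and 0.781, 0.788 and 0.727 at E16.5, and the ages did not overlap. On the 3' ends alone it had 0.938, 0.876 and 0.822 in adult, and 0.856, 0.345 and 0.830 at E16.5, and the ages overlapped.

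LSU-A3846, LSU-G4020 and 5.8S-U14 stayed partly methylated in the adult brain. LSU-A3846, which pairs with Snord92, had 0.771 in adult (the authors' deposited SD, 0.0398) and 0.610 at E16.5 (the authors' deposited SD, 0.0833). LSU-G4020 had 0.806 in adult (the authors' deposited SD, 0.030) and 0.694 at E16.5 (the authors' deposited SD, 0.0369). 5.8S-U14, at position 14 of 5.8S rRNA, had 0.852 in adult (the authors' deposited SD, 0.0194) and 0.7002 at E16.5 (the authors' deposited SD, 0.0324). The unmethylated share at 5.8S-U14 was 14.8% in adult and 30.0% at E16.5, or 2.03 times as large in the embryo. The other site of 5.8S rRNA, 5.8S-G75, had 0.947 in adult and 0.942 at E16.5 and did not differ past the summed SDs of 0.0594.

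The remaining sites among the 15 largest differences past the summed SDs reached between 0.899 and 0.986 in adult. LSU-G2411 had 0.966 in adult and 0.845 at E16.5, and LSU-G3606 had 0.948 in adult and 0.834 at E16.5. LSU-C4032, guided by SNORD75 of Gas5, had 0.899 in adult and 0.788 at E16.5. SSU-U172 had 0.963 in adult and 0.861 at E16.5. LSU-A4541, SSU-G867 and LSU-G4469 had differences of 0.0949, 0.0941 and 0.0927. At LSU-G4469 the adult SD was 0.00321 and the E16.5 SD 0.0783, so that the spread came nearly wholly from the embryonic brains.

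**Figure D3:**
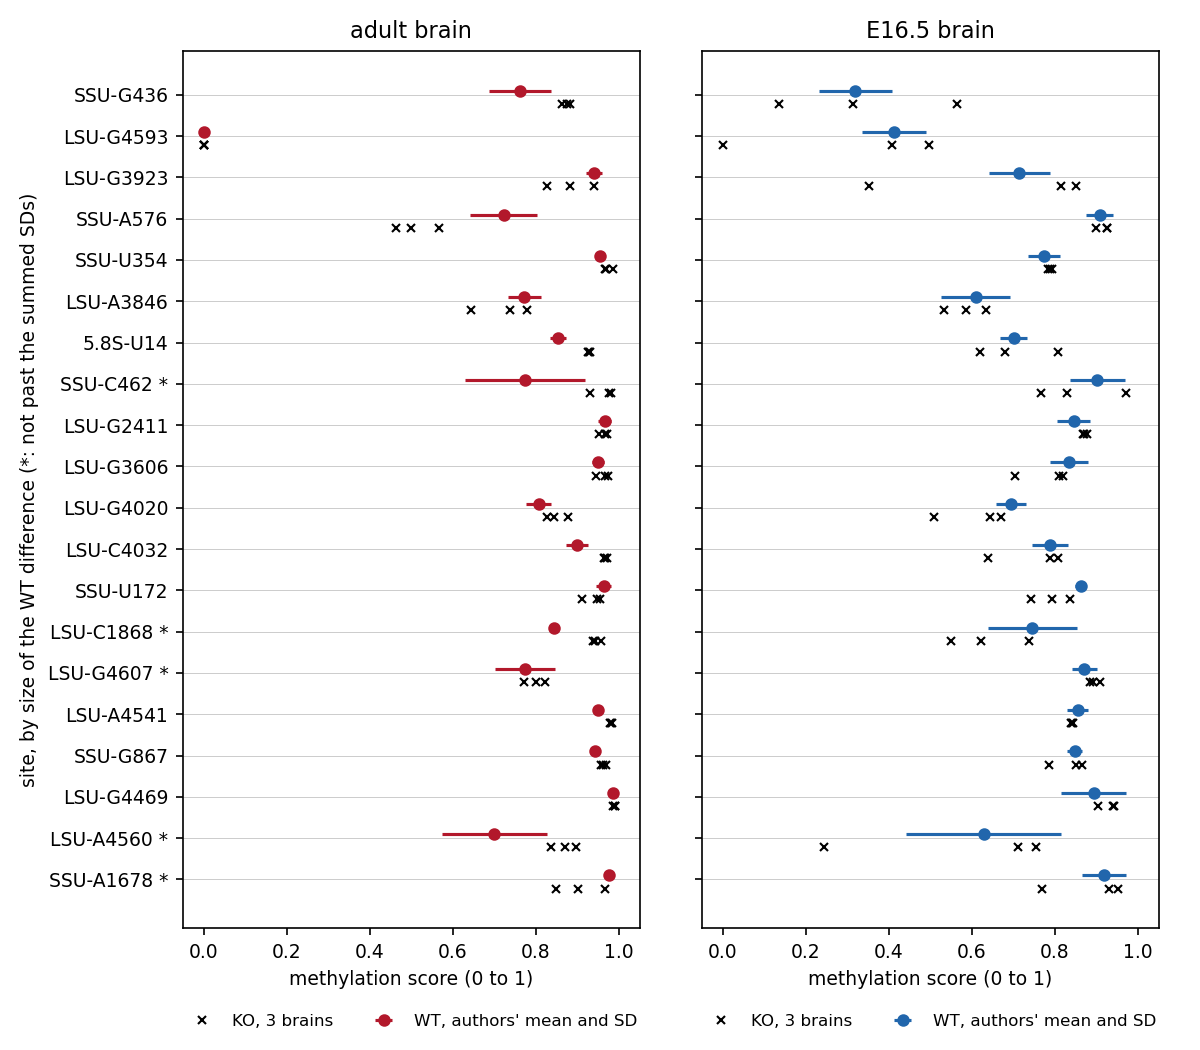
Score of the 3 KO brains of each age (crosses) and of WT brains (circle and bar, authors' mean and SD) in adult (left, red) and at E16.5 (right, blue), for the 15 largest WT differences past the summed SDs and the 5 largest that were not (marked with a star). At SSU-U354 and LSU-A4541 the crosses of each age lie close together and apart from the other age, while at SSU-G436, LSU-G4593 and LSU-G3923 the E16.5 brains scatter widely.

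At sites near complete methylation a small difference in score is a large one in the unmethylated share. The unmethylated share was at least 2 times as large at E16.5 as in adult at 48 sites, 41 of them past the summed SDs, and at least 3 times as large at 25 sites. It was over 5 times as large at 5 sites. SSU-U1804, close to the 3' end of 18S rRNA, had 0.679% unmethylated in adult and 5.48% at E16.5, a ratio of 8.06. LSU-G4469 had 1.40% in adult and 10.7% at E16.5, a ratio of 7.64. LSU-U3904 had 0.921% in adult and 6.18% at E16.5. Both of its WT means are written with more decimals than most, which may mark corrected values. Its KO means were 0.982 in adult and 0.860 at E16.5 as the authors give them. Recomputed from the brains they were 0.877 and 0.736. SSU-U627 had 1.68% in adult and 9.69% at E16.5, and LSU-U2824 had 1.07% in adult and 6.14% at E16.5. In these 5 sites the methylated base was U at all but LSU-G4469. The ratios divide by small adult shares, and their order depends on that. With a pseudocount of 0.01 added to both shares, LSU-G4469 ranked 1st by log2 ratio. SSU-U354 then ranked 2nd, LSU-G3923 3rd, SSU-U627 4th, SSU-U1804 5th, LSU-U3904 6th and LSU-U2824 9th.

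Some sites were partly methylated without a difference past the SDs. SSU-C1272 had 0.464 in adult (the authors' deposited SD, 0.0493) and 0.461 at E16.5 (the authors' deposited SD, 0.123), close to equal shares of methylated and unmethylated rRNA at both ages. LSU-A4560 had 0.6999 in adult and 0.628 at E16.5, with SDs of 0.126 in adult and 0.187 at E16.5 that were larger than the difference. SSU-C462, which pairs with Snord14a and its relatives, had 0.774 in adult (the authors' deposited SD, 0.144) and 0.902 at E16.5 (the authors' deposited SD, 0.0664). This is the largest WT difference not past the summed SDs, -0.127 against 0.211. LSU-C1868 had 0.844 in adult and 0.746 at E16.5, a difference of 0.0984 against 0.118, and LSU-G4607 had 0.774 in adult and 0.871 at E16.5. SSU-A1678 had 0.976 in adult and 0.918 at E16.5, where summed SDs of 0.0609 exceeded the difference of 0.0582.

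Sites guided by the SNORDs of Gas5 introns were taken as a group, by the human assignments of the guides. Gas5 is a host gene whose exons code for no protein and whose introns carry several SNORDs. Of its 10 sites, 7 were past the summed SDs, 6 higher and 1 lower in adult, which is 70.0% against 51.9% of all listed sites and 49 of the 98 other sites. With so few sites this is a description only. The median difference was 0.0234, against 0.0226 over all listed sites. The sites ranged from LSU-G4593 (-0.412) to LSU-C4032 (0.111). LSU-A3809 (SNORD79) had 0.982 in adult and 0.927 at E16.5, LSU-C3820 (SNORD74) had 0.963 in adult and 0.910 at E16.5, and LSU-G1612 (SNORD80) had 0.957 in adult and 0.928 at E16.5. LSU-A2350 (SNORD76) and LSU-C3866 (SNORD47) were over 0.99 in adult and above 0.97 at E16.5. SSU-A166 (SNORD44), LSU-A391 (SNORD81) and LSU-A1521 (SNORD77) did not differ past the summed SDs. Guides of the same host thus went with differences of opposite sign.

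By place in the rRNA, 18 of 40 sites of 18S rRNA, 37 of 66 of 28S rRNA and 1 of 2 of 5.8S rRNA were past the summed SDs. In 28S rRNA the counts were 4 of 12 before human position 2000, 9 of 15 between 2000 and 3500, 11 of 19 between 3500 and 4000 and 13 of 20 beyond, the last stretch holding the peptidyl transferase centre. In 18S rRNA 12 of 24 sites before position 700 and 6 of 16 from there on were past. The medians of these 6 stretches lay between 0.0154 and 0.0274. No stretch was without differing sites.

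The methylated base and the base after it also went with the counts. Of the sites on U, 16 of 20 were past the summed SDs, against 18 of 32 on G, 10 of 23 on C and 12 of 33 on A. By the next base, 13 of 18 sites followed by A and 30 of 42 followed by G were past, against 10 of 27 followed by U and 3 of 21 followed by C. All 13 sites on U that are followed by G or A were past, and so were 30 of the 47 sites on other bases with such a neighbour. The median difference was 0.0377 before A, 0.0264 before G, 0.0239 before U and 0.00356 before C. The KO brains had another order, with medians of adult minus E16.5 of 0.0298 before A, 0.0144 before G, 0.0352 before U and 0.0444 before C. The authors' deposited adult SD of WT had a median of 0.0186 before C and 0.00425 before G. In the KO libraries, where 5' and 3' read ends are counted apart, the median of the 5' score minus the 3' score at sites before C was 0.306 in adult replicate 1 and 0.266 in E16.5 replicate 1, and 0.0929 or less in the other libraries. The part of such library differences in the WT values was not tested.

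**Figure D4:**
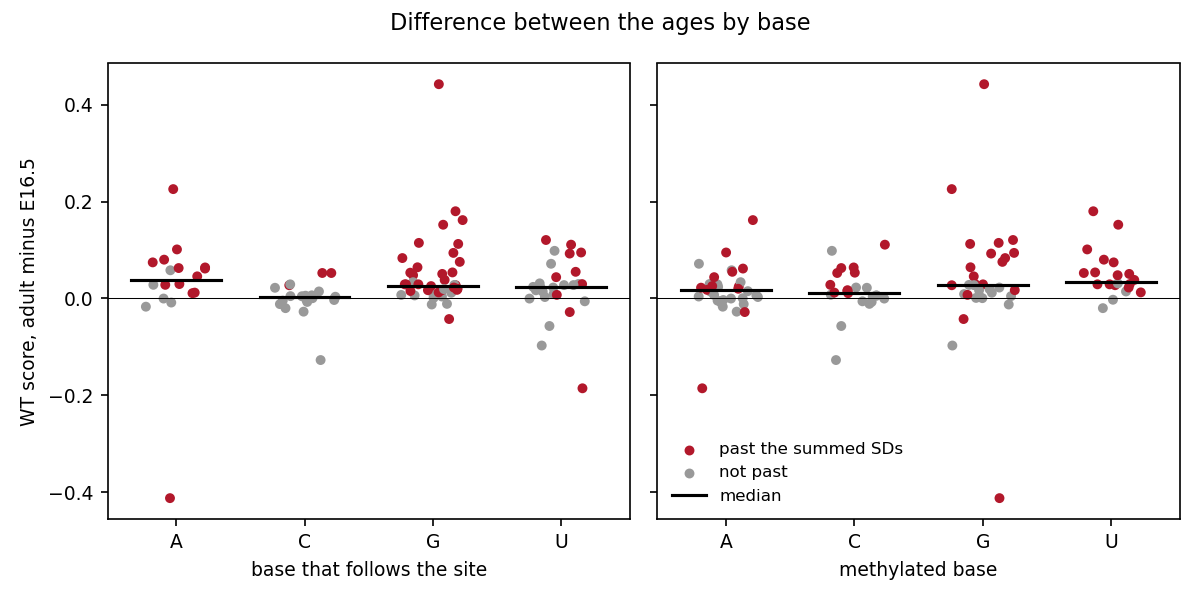
WT adult minus E16.5 score by the base that follows the site (left) and by the methylated base (right), with 1 point per site, red where past the summed SDs, and the median as a line. Sites followed by C lie around 0 (median 0.00356), and sites on U lie mostly above it.

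The KO brains gave a yardstick from other animals of the same ages. The study calls the WT animals littermates, and how litters and runs were shared is unknown here. Age and a litter or run shared by the WT and KO brains of an age therefore cannot be told apart. At 84 of the listed sites the authors' WT and KO adult means both lay on one side of the authors' WT and KO E16.5 means, 76 higher and 8 lower. This held at 54 of the 56 sites past the summed SDs, the exceptions being SSU-G683 and LSU-C3680. The WT difference between ages was larger than the larger difference between genotypes at 50 of the 56 sites, and at SSU-A576, SSU-G683, SSU-G1447, LSU-C3680, LSU-C3820 and LSU-U3904 it was not. Over all listed sites the WT difference between ages was the larger at 69. The 56 sites were chosen by that difference, and the WT means enter both kinds of difference. The KO brains differ in both age and genotype, since the adult brains lack Snord115 alone.

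Among the KO brains themselves the read ends could be tested. With edgeR's quasi-likelihood test and Benjamini-Hochberg adjustment over all listed sites, 29 sites (26.9%) passed an adjusted p of 0.05, of which 28 (25.9%) had the higher fraction in adult and the remaining 1, SSU-A576, at E16.5. Of these, 20 were also past the summed SDs in WT and had the same direction. This is 35.7% of the WT sites, against 26.9% of all listed sites that passed in KO. It is 69.0% of the KO sites, against 51.9% of all listed sites that were past in WT. The ranges of the brains did not overlap between the ages at 46 sites (42.6%), 29 of which were past the summed SDs in WT. At 54 of the 56 WT sites the KO means, recomputed from the single brains, differed in the same direction. The exceptions were LSU-C2409 and LSU-C3680. Over all listed sites the direction was the same at 88, and the recomputed KO mean was higher in adult at 95. At LSU-C2409 the adult KO mean was 0.873 when recomputed and 0.933 as the authors give it. Without replicate 2 of the adult KO brains 10 sites passed in place of 29.

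Of the 15 largest WT differences past the summed SDs, 12 passed the test in the KO brains. SSU-U354 (adjusted p = 0.00446), SSU-A576 (adjusted p = 0.00446) and LSU-A4541 (adjusted p = 0.00446) were among them in edgeR, and SSU-G436 had an adjusted p of 0.00968 in edgeR, which was 0.0543 without replicate 2 of the adult brains. LSU-G4593 (adjusted p = 0.0848), LSU-G3923 (adjusted p = 0.165) and LSU-A3846 (adjusted p = 0.308) did not pass in edgeR. SSU-U1804 had the largest ratio of unmethylated shares in WT when no pseudocount was added. Its KO brains had 0.991, 0.993 and 0.987 in adult, and 0.930, 0.931 and 0.939 at E16.5 (adjusted p = 0.00446 in edgeR). LSU-C1868, not past the summed SDs in WT, passed in edgeR with an adjusted p of 0.00578, where the KO brains had 0.939, 0.957 and 0.942 in adult, and 0.738, 0.550 and 0.622 at E16.5. Counting only 5' ends, the direction at LSU-C1868 turned, with an adjusted p of 0.822.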

How the data were processed

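RiboMeth-seq reads were mapped by the authors to curated mouse rRNA sequences, using, by the submitters' notes, Bowtie2 2.3.4.1 after cutadapt 2.0. The deposited overview table gives a methylation score at 108 sites, as the authors' mean and SD, for WT and KO brains at each age. WT means are used as deposited. The deposited KO tables hold, at 6758 rRNA positions, counts of read ends of each kind (5' and 3') and a methylated fraction computed by the authors as 1 minus observed over expected read ends, with weights of 1.0 to 0.5 over 6 neighbours per side. The KO libraries held 9621368 to 20064865 read ends, and at least 277 were expected at each site. Reads carry no molecular identifiers. The overview does not state how many brains a WT mean holds. The WT ages were set against the summed SDs without a test, since no value per brain was used, and with 3 brains per age, as the study's legend gives for adult brains, a two-sided exact permutation test could not go below 0.1. The labels call the double-KO brains E16.5, as does the results text of the study, while a legend calls brains of that genotype adult. KO brains were tested with edgeR 4.0.16 on 5' plus 3' read ends, offset by the logarithm of the expected number, with an adjusted p of 0.05 as threshold. The p-values weigh the difference between adult Snord115-KO and E16.5 double-KO brains against the spread among the brains of each group. Age and genotype change together in that difference.

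The sites and lists were chosen with earlier results of these data known. Named were the 3 sites of the study's results text with the other 5.8S site, the 15 largest WT differences past the summed SDs, those lower in adult, sites under 0.75 at either age, the 10 Gas5 sites and the 5 largest differences not past the SDs, 32 sites in all. SSU-U1804, SSU-U627, LSU-U3904, LSU-U2824, SSU-G1447, LSU-C2409, LSU-C3680, LSU-G4588 and LSU-U4590 were named after their values were seen. Alternatives were other criteria for a difference, subsets by next base, the log2 scale, other read ends and neighbours, leaving out each brain, DESeq2 1.42.0, limma 3.58.1 and TMM library sizes. Calculations used R 4.3.3 and Python 3.11.15.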

Additional observations from a re-analysis of the deposited data

How the results depend on the processing

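The direction of the WT shift was the same under every alternative run, while the counts followed the criterion. Past the summed SDs were 56 sites, 52 of them higher in adult. Past 2 times the larger SD were 37 sites (33 higher), and past 2 times the root of the summed squared SDs 34 (31 higher). Requiring also a difference of 0.05 left 29 sites (27 higher), and of 0.1 left 12 (10 higher). With SDs that divide by the number of brains less 1, 44 sites remained past. At SSU-A27 the authors' deposited KO SDs were 0.00189 in adult and 0.00474 at E16.5. Recomputed from the KO brains with that divisor they were 0.00231 and 0.00581. The deposited KO SDs at this site thus have the smaller form, which divides by the number of brains. The form of the WT SDs was not checked, and if it is the same, 44 is the count for the larger form. The median difference was 0.0226, and as a log2 ratio of the unmethylated shares, E16.5 over adult, it was 0.67 with a pseudocount of 0.01 and 0.85 with 0.001. The ages were apart by at least 0.02 across genotypes at 44 sites in place of 84. The overview marks corrected means by a colour that was not read here. In the KO columns the means written with more decimals were those that differ from the mean of the brains, so an alternative chosen after seeing the data left out the 7 sites with such WT means, which gave 53 of 101 sites past the summed SDs. No leave-one-out value exists for WT, whose single brains were not used.

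In the KO brains edgeR called 29 sites, 63 when only 5' ends were counted and 7 with only 3' ends, while DESeq2 called 47. Leaving out 1 brain gave 10 to 30 calls, the lowest without adult replicate 2. With replicate number as a block edgeR called 31 sites. The deviations of same-numbered brains correlated at 0.67, 0.45 and -0.18, and 3 of 6 brains correlated best with their own number, so the numbers were not taken to pair the brains. Among named sites that passed with all read ends counted, the direction turned at LSU-C1868 and LSU-G3606. LSU-C1868 turned on the 5' ends (adjusted p = 0.822) and LSU-G3606 on the 3' ends (adjusted p = 0.384), both in edgeR. Mean scores also turned at some named sites that did not pass. LSU-A391, lower in adult with all ends, had 5' means of 0.984 (adult) and 0.974 (embryo). LSU-A2350, higher in adult with all ends, had 3' means of 0.974 (adult) and 0.987 (embryo). Apart from the turns at LSU-C1868 and LSU-G3606, 449 values for named sites under alternatives kept their side of the threshold, 22 lost it and 25 gained it. The depth of the WT libraries is unknown here.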
